A study of Homo sapiens with 2 samples.

Results

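To examine how small nucleolar and nuclear RNA genes and their host genes differed after berberine treatment, all probes of these genes were taken from the HumanHT-12 v4 BeadChip by the gene symbol of the platform annotation. The symbols were those of C/D box snoRNAs (SNORD), H/ACA box snoRNAs (SNORA), small Cajal body RNAs (SCARNA), spliceosomal snRNAs (RNU), 7SK, 7SL, Y and vault RNAs, the RNA subunits of RNase MRP and RNase P, and the snoRNA host genes (SNHG and GAS5). The rule took 353 of 47231 probes, which belong to 342 of the 20046 genes with a symbol. HepG2, a human hepatoma cell line, was treated for 4 h with 40 µM berberine chloride, a plant alkaloid, dissolved in DMSO, or for 4 h with 0.08% DMSO as the control. Total RNA was used, with 1 array per group. There is therefore no spread between replicates, no test and no p-value between the groups, and each difference below compares these 2 arrays only.

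Most snoRNAs are cut out of introns of longer host transcripts. C/D box snoRNAs guide 2'-O-methylation and H/ACA box snoRNAs guide pseudouridylation, mainly of ribosomal RNA, while scaRNAs guide the same modifications of spliceosomal snRNAs in Cajal bodies. Many hosts are genes of ribosomal proteins and translation factors. The SNHG genes and GAS5 are hosts whose spliced RNA codes for no well-known protein, and several of these RNAs are degraded by nonsense-mediated decay in the cytoplasm. Mature snoRNAs, snRNAs and the other small RNAs have no poly(A) tail, whereas the cRNA labelling of this array starts from poly(A). Signal of a small RNA probe from the mature RNA, from a tailed precursor, from a host transcript that kept its intron or from priming inside an RNA cannot be told apart. The SNHG probes measure spliced polyadenylated RNA, for which the array was made.

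The start regions of the host genes are shown first, because hosts with a terminal oligopyrimidine start are a known group. SNHG7 is printed because it had probes past 1.5-fold below, and SNHG12 and ZFAS1 because snoRNAs within them did. RefSeq gives the start of 14 of the 17 host genes among the members (build GRCh38.p14). SNHG9, also past 1.5-fold below, is not among the 14. Each line runs 5' to 3' for 50 bases before the start and the first 20 bases of the transcript, with SNHG5 and SNHG8 as hosts that stayed near 0. Capitals mark TATAAA or TATATA, searched on the strand of the gene 40 to 20 bases before the start, and runs of at least 6 C or T within 10 bases of the start.
SNHG7 (chr9:136728165-136728234, minus strand): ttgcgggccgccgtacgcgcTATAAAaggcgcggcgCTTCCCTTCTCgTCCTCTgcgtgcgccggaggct
SNHG12 (chr1:28581854-28581923, minus strand): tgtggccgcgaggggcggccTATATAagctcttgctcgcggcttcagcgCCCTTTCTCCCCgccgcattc
SNHG5 (chr6:85678714-85678783, minus strand): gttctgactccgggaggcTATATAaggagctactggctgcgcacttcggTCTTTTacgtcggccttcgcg
ZFAS1 (chr20:49278592-49278661, plus strand): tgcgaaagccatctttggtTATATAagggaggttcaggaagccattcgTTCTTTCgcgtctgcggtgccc
SNHG8 (chr4:118278712-118278781, plus strand): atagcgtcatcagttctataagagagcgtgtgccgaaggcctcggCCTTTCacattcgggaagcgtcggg
The TATA letters were found in 3 of the 14 host members, SNHG7, SNHG12 and SNHG5, and each of these also had a pyrimidine run. A run was found in 10 of the 14. Each host was read at a single start, and any other start of the gene was not searched. GAS5 was among those with no run at the start that was read. Among all 35116 start regions of the table, 3.12% held the TATA letters in that window on the strand of the gene (3.62% on either strand), 31.1% held a pyrimidine run and 0.977% held both. ZFAS1, a host that lies outside the symbol rule, held both. A match describes these letters only. A run did not have to begin at the first transcribed base, so it need not be a terminal oligopyrimidine tract. In SNHG7 the longer run ends before the start.

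Of the 353 probes, 111 (31.4%) were detected on both arrays, at a detection p under 0.01, against 30.6% of all probes on the array. A further 11 were detected on the berberine array only, 8 on the control array only and 223 on neither. Median intensity over all probes was 130.1 on the berberine array and 120.6 on the control array. After background correction and quantile normalization, the difference (log2 of berberine minus log2 of control) of the 111 probes had a median of -0.01 and ran between -1.05 and 0.75, and 53 lay above 0 and 58 below. Their SD across probes was 0.34, against 0.35 over all 14476 probes detected on both arrays. Over 1.5-fold, 3 probes were higher (2.70%, against 4.1% of all detected probes) and 8 were lower (7.21%, against 4.11%). In the normalized intensity as deposited, which keeps the background, none of the 111 was over 1.5-fold higher (1.38% of all detected probes were) and 3 were lower (0.974% of all were). These 3 were 2 probes of SNHG7 and the probe of SNORA61. All 111 kept their sign in the deposited values.

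**Figure D1:**
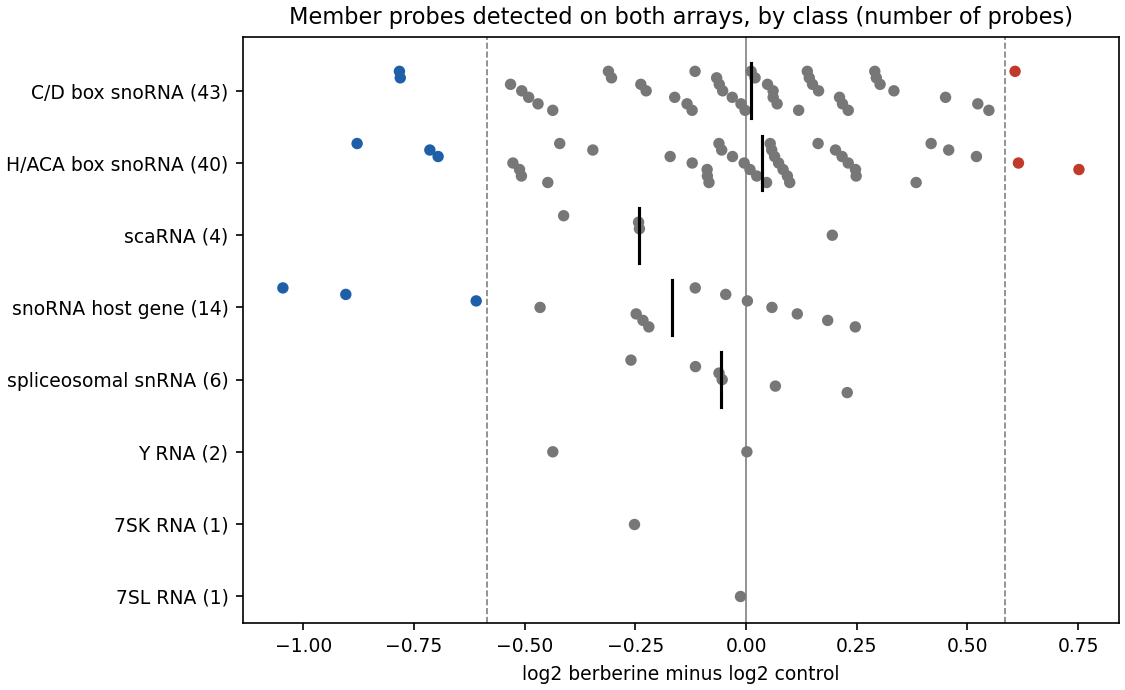
Log2 difference (berberine minus control) of each member probe detected on both arrays, by class with the number of probes; dashed lines mark 1.5-fold, red points are higher and blue points lower beyond it, and black bars are class medians for classes of 4 or more probes. Both snoRNA classes lie on either side of 0, and the snoRNA host genes have a median of -0.17 with 3 probes past the lower line.

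The error of a single probe was estimated from pairs of probes of the same gene. Its SD was 0.25 on the log2 scale over 2193 pairs, 0.32 where both probes had a mean level under 7, 0.23 between 7 and 9 and 0.16 at 9 and over. Differences between cultures are not part of it. Some pairs were annotated to different transcripts of a gene, such as those of SNX5 (0.36 and -0.36). The SD can therefore hold differences between transcripts as well as probe error. Of the 111 member probes, 54 had a mean level under 7, 43 between 7 and 9 and 14 at 9 or over, so about as many rest on the noisier range as on the others. Hepatocyte markers were well measured. Of 9 listed, 8 (APOB and AFP among them) were found on the array by symbol. All 8 were detected on both arrays and none was past 1.5-fold.

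Among the host genes themselves, 11 of 17 genes were detected on both arrays through 14 of their 22 probes. Of the 14 probes, none was over 1.5-fold higher and 3, of SNHG7 and SNHG9, were lower (21.4%, against 4.11% of all detected probes), with 2 of the 3 from the same gene. Of the 14, 9 were below 0 and 5 above. The median was -0.17 over probes and -0.11 over genes, taking the brightest probe of each. SNHG7, a host of H/ACA snoRNAs, was measured by 3 probes, and all were lower after berberine. The first read 207 in berberine-treated cells and 300.2 in the control, a 2.06-fold decrease (difference -1.05). The second read 361 in berberine-treated cells and 557 in the control (1.87-fold lower, difference -0.90). The third read 1232 in berberine-treated cells and 1555 in the control and stayed within 1.5-fold (difference -0.47). The probes thus shared a direction but not a size. SNHG9, host of SNORA78, read 783 in berberine-treated cells and 1065 in the control, 1.53-fold lower (difference -0.61), and its difference in the deposited values was -0.55, inside the threshold.

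The other host genes stayed within 1.5-fold. SNHG1, which hosts a row of C/D snoRNAs, read 1851 in berberine-treated cells and 1999 in the control (difference -0.23). SNHG12 read 235 in berberine-treated cells and 245 in the control (difference -0.25), and SNHG11 read 259 in berberine-treated cells and 268 in the control (difference -0.22). SNHG5, host of U50 snoRNAs, was level by both probes, at 8792 and 4840 in berberine-treated cells and 8884 and 4595 in the control (differences -0.11 and -0.05). SNHG17 read 823 in berberine-treated cells and 665 in the control, with the highest difference of the class at 0.25. SNHG32 differed by 0.18, SNHG6 by 0.12 and SNHG4 by 0.06. SNHG8 read 1373 in berberine-treated cells and 1283 in the control, a ratio of 1.00 after normalization. The probe of GAS5, the growth arrest host gene, was not detected at the threshold (detection p 0.026 on the berberine array and 0.0494 on the control array), so its difference of 0.25 is not read as a level. SNHG10 was detected on the control array only.

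Among the small RNA probes, 97 of 331 were detected on both arrays, with 3 over 1.5-fold higher (3.09%, against 4.1% of all detected probes), 5 lower (5.15%, against 4.11%) and 89 within. These shares are near those of all probes. The 43 detected C/D box probes (of 178) had a median difference of 0.01, with 1 higher (2.33%) and 2 lower (4.65%). The 40 detected H/ACA box probes (of 102) had a median of 0.04, with 2 higher (5%) and 3 lower (7.5%). Raw intensities ran between 153 and 669 for C/D box probes on the berberine array and between 144 and 631 on the control array, and those of H/ACA box probes ran between 153 and 752 on the berberine array and between 142 and 1078 on the control array.

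SNORA25 was the small RNA probe with the largest increase. It read 532 in berberine-treated cells and 339 in the control (1.68-fold higher, difference 0.75). SNORA3B read 247 in berberine-treated cells and 186 in the control (1.53-fold higher, difference 0.62). SNORD36C read 259 in berberine-treated cells and 194 in the control (1.52-fold higher, difference 0.61). None of the 3 passed the threshold in the deposited values, where SNORA25 came closest at 0.57. Just under the threshold were SNORD36A (309 in berberine-treated cells and 231 in the control, difference 0.55), SNORD3D (0.52) and SNORA70 (720 in berberine-treated cells and 502 in the control, difference 0.52).

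Of the small RNA probes that were lower, SNORA61 read 752 in berberine-treated cells and 1078 in the control (1.62-fold lower, difference -0.70), and it alone was also past the threshold in the deposited values, at -0.62. SNORD12C read 254 in berberine-treated cells and 343 in the control (1.72-fold lower, difference -0.78). SNORD99 read 184 in berberine-treated cells and 227 in the control (1.72-fold lower, difference -0.78). SNORA57 read 202 in berberine-treated cells and 249.5 in the control (1.64-fold lower, difference -0.71). SNORA80E read 153 in berberine-treated cells and 182 in the control (1.84-fold lower, difference -0.88), with a deposited difference of -0.34. For the dim probes of this group a small gap in raw intensity becomes a larger difference once the background is removed. Between -0.53 and -0.51 lay SNORA67, SNORD14C, SNORA12, SNORA16A and SNORD12, all just inside the threshold.

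**Figure D2:**
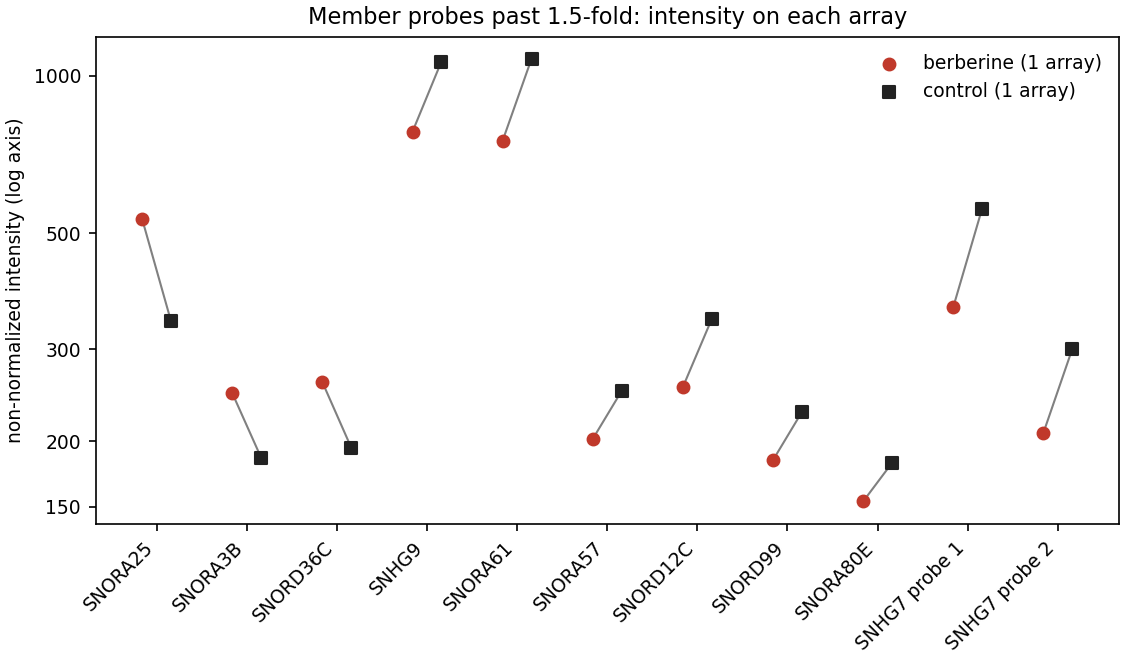
Non-normalized intensity (log axis) of the 11 member probes past 1.5-fold, with berberine as red circles on the left of each pair and control as black squares on the right, 1 array each. The first 3 probes are higher with berberine and the other 8 lower, and for SNORA80E the values are 153 with berberine and 182 in the control.

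The snoRNAs that take part in cleavage of the ribosomal RNA precursor did not move together. U3 is represented by SNORD3A (305 in berberine-treated cells and 263 in the control, difference 0.21), SNORD3C (0.02) and SNORD3D (391 in berberine-treated cells and 287 in the control, difference 0.52). These copies are nearly identical, so their probes may share signal. U14, which is needed for 18S processing, gave differences of 0.06 for SNORD14A, -0.13 for SNORD14D and -0.53 for SNORD14C, again nearly identical copies. SNORD22 (U22) read 154 in berberine-treated cells and 163 in the control (difference -0.49). SNORD13 (U13), which guides acetylation of 18S RNA, read 669 in berberine-treated cells and 631 in the control, a ratio of 0.999 after normalization. SNORA73A and SNORA73B (U17) lay at 0.02, 0.01 and -0.09 over 3 probes. The processing snoRNAs thus ran between -0.53 and 0.52, with none past the threshold.

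Members of the same host were set side by side. Of 306 snoRNA and scaRNA probes, 288 lay within the span of 1 RefSeq gene, taken as the host without regard to strand, 11 in none and 7 in several. The 154 hosts were 124 protein-coding and 30 long non-coding genes. Of these, 113 were measured, and none was over 1.5-fold higher (3.87% of all 9128 measured genes were) and 4 were lower (4.09% of all were), EIF5, KHDC4, RPL37 and SNHG9. In the deposited values EIF5 alone stayed past the threshold, at -1.09, while SNHG9 was at -0.55, KHDC4 at -0.54 and RPL37 at -0.30. The RPL37 probe was near the detection floor, at 154 on the berberine array, where the lowest probe detected on both arrays read 151.5. SNHG7 is not among the 4 because its brightest probe, which gives its value here, stayed within 1.5-fold. TAF1D is not counted as higher for the same reason, although its dimmer probe was past 1.5-fold. The median difference of the measured hosts was -0.03. In 16 hosts at least 2 member probes were detected, and these were all above 0 in 7 hosts, all below 0 in 5 and of both signs in 4. Over the 37 pairs of probes of different genes within 1 host, 30 (81.1%) had the same sign, with a median gap of 0.20 on the log2 scale. Over 3043 pairs in different hosts, 49.0% had the same sign and the median gap was 0.33. These pairs share the 2 arrays and overlap in their probes, and some within a host are close copies, such as SNORD36A and SNORD36C, so the shares are a description without a test. TAF1D, with 5 detected members all above 0, gave more of the pairs within 1 host than any other host.

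**Figure D3:**
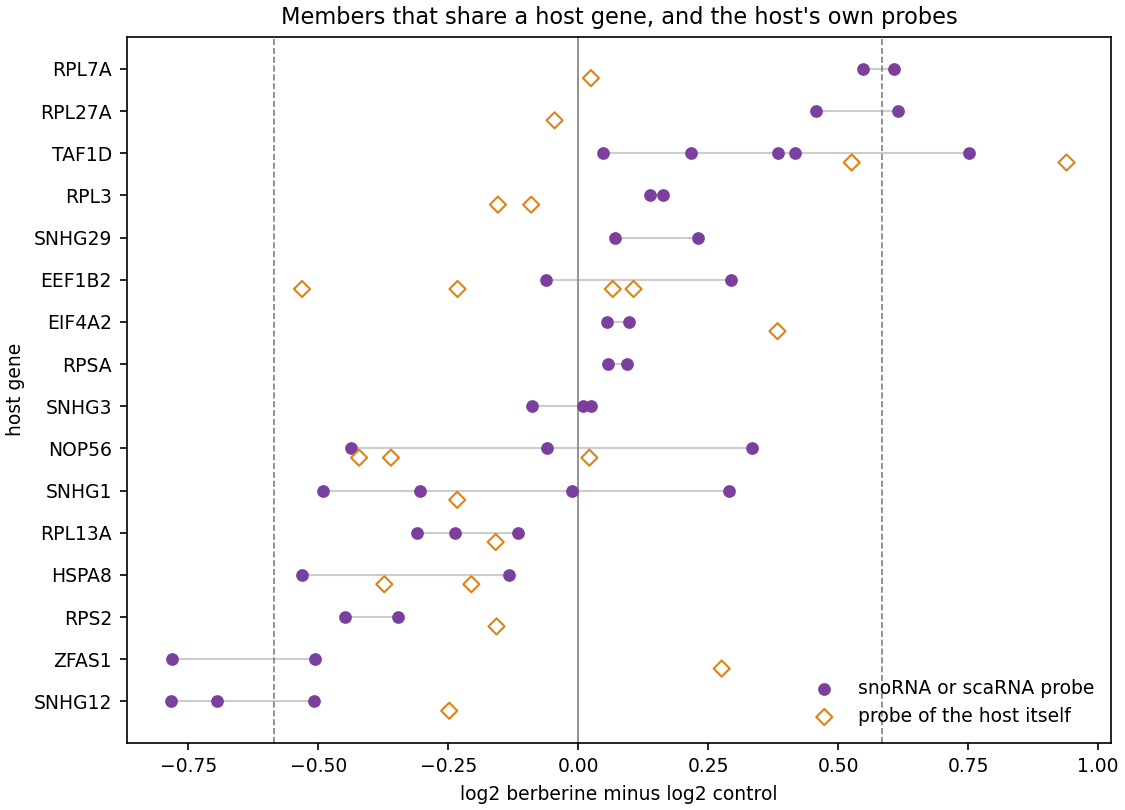
Log2 difference (berberine minus control) of snoRNA probes (purple circles) grouped by host gene, for the 16 hosts with at least 2 detected, with the detected probes of the host itself as orange diamonds; dashed lines mark 1.5-fold. All members lie above 0 in TAF1D and below 0 in SNHG12 and ZFAS1, while the ZFAS1 probe lies at 0.28.

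TAF1D, a subunit of the RNA polymerase I promoter factor SL1, hosts 8 of the member probes. The 5 detected were all higher after berberine, with differences of 0.75 for SNORA25, 0.42 for SNORA32, 0.38 for SNORA8, 0.22 for SNORA18 and 0.05 for SNORD6. SNORA18 read 528 in berberine-treated cells and 439.5 in the control, and SNORA8 read 265 in berberine-treated cells and 215 in the control. Both probes of TAF1D were higher as well. The brighter read 276 in berberine-treated cells and 211 in the control (difference 0.53). The dimmer read 199.7 in berberine-treated cells and 144 in the control (difference 0.94). Its control value was near the detection floor, as the lowest probe detected on both arrays read 141.6 on the control array. In the deposited values the TAF1D probes were at 0.31 and 0.37, inside the threshold, and the median of the 5 members was 0.20.

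The 3 detected members of SNHG12, SNORD99, SNORA61 and SNORA16A (171 in berberine-treated cells and 188 in the control, difference -0.51), were all lower, and the host lay at -0.25. Both detected members of ZFAS1 were lower, SNORD12C at -0.78 and SNORD12 at -0.51 (218 in berberine-treated cells and 252 in the control). The ZFAS1 probe itself read 4874 in berberine-treated cells and 3745 in the control, a difference of 0.28 in the opposite direction. In SNHG1, SNORD22 (-0.49), SNORD30 (-0.30) and SNORD31 (-0.01) were below 0 and SNORD25 was at 0.29. SNHG7 hosts SNORA17B, which was detected on the control array only.

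In several ribosomal protein hosts the snoRNA probes differed by more than the host did. SNORD36A and SNORD36C of RPL7A lay at 0.55 and 0.61 with the host at 0.02, and SNORA3A and SNORA3B of RPL27A lay at 0.46 and 0.62 with the host at -0.05. In the deposited values SNORD36A and SNORD36C were both at 0.34, SNORA3A at 0.19 and SNORA3B at 0.32. RPL7A and RPL27A read 6390 and 18788 in berberine-treated cells. The SD of a single probe was 0.16 at their level, against 0.23 or 0.32 at the levels of these snoRNA probes. Whether the gaps exceed probe error was not tested. In RPS2, SNORA64 lay at -0.45 and SNORA10 at -0.35 with the host at -0.16. In RPL13A, whose C/D snoRNAs are known from lipotoxic stress in rodent cells, SNORD33 (-0.31), SNORD32A (-0.24) and SNORD34 (-0.12) were below 0 beside the host at -0.16. In RPL3, SNORD83B (0.16) and SNORD139 (0.14) lay above 0, and in RPSA so did SNORA62 (0.09) and SNORA6 (0.06). HSPA8, a constitutive chaperone, lay at -0.21 with SNORD14C and SNORD14D below 0. NOP56, a core protein of C/D snoRNPs, hosts SNORD57 (-0.44), SNORD110 (-0.06) and SNORD56 (0.33), which spread over both signs as its own 3 probes did, at -0.42, -0.36 and 0.02. In EEF1B2, SNORD51 lay at 0.29 and SNORA41 at -0.06, and in EIF4A2 SNORA4 lay at 0.10 and SNORA63 at 0.05 with the host at 0.38. In SNHG29, SNORD65 lay at 0.23 and SNORD49A at 0.07.

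The hosts past 1.5-fold gave no single pattern in their snoRNAs. KHDC4, a KH domain protein of splicing, read 467 in berberine-treated cells and 639 in the control (1.59-fold lower, difference -0.67), and its SNORA80E was lower too. The SNORA80E probe was near the detection floor, at 153 on the berberine array. In the deposited values KHDC4 was at -0.54 and SNORA80E at -0.34, both inside the threshold. EIF5, a translation initiation factor, read 594 in berberine-treated cells and 1192 in the control, 2.37-fold lower (difference -1.24), while its SNORA28 read 171 in berberine-treated cells and 160.5 in the control, a ratio of 0.997 after normalization. The snoRNA probes of RPL37 and SNHG9 were not detected on both arrays. Over the 40 hosts with a measured member and a measured host, Pearson's r between the host's difference and the median difference of its members was 0.30 and Spearman's rho 0.39. The points share both arrays, and the value is given as a description across hosts.

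The remaining C/D box probes lay within 1.5-fold. Below 0 were SNORD11 (-0.47), SNORD16 (-0.23), SNORD52 (-0.16), SNORD1A (-0.12), SNORD91A (-0.07), SNORD17 (-0.05) and SNORD15B (-0.03). SNORD4A (0.01), SNORD80 (0.06), SNORD104 (0.12), SNORD68 (0.14), SNORD69 (0.15), SNORD96A (0.22), SNORD35B (0.30) and SNORD89 (0.45) lay above. Of the remaining H/ACA box probes, SNORA67 read 586 in berberine-treated cells and 754 in the control (difference -0.53), and SNORA12 (-0.51), SNORA26 (-0.42), SNORA33 (-0.17), SNORA24 (-0.12), SNORA27 (-0.09), SNORA80A (-0.08), SNORA71A (-0.06) and SNORA65 (-0.03) were also below 0. SNORA59B (0.05) and its near copy SNORA59A (0.08), SNORA58 (0.06), SNORA50C (0.07), SNORA84 (0.16), SNORA13 (0.20), SNORA22 (0.23), SNORA7B (0.25) and SNORA11D (0.25) lay above. Most of these differences are no larger than the SD of a single dim probe, 0.32.

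Of the 24 scaRNA probes, 4 were detected on both arrays. SCARNA10 (U85), which guides modification of U5 snRNA, read 359 in berberine-treated cells and 310.4 in the control (difference 0.19). SCARNA13 read 214 in berberine-treated cells and 236.5 in the control (difference -0.41). SCARNA9 read 181 in berberine-treated cells and 183 in the control, and SCARNA16 read 179 in berberine-treated cells and 181 in the control, each with a difference of -0.24. None of the 4 was past 1.5-fold, and their median was -0.24.

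None of the 6 detected spliceosomal snRNA probes was past 1.5-fold, and they ran between -0.26 and 0.23. U6 snRNA (RNU6-1), a common reference RNA, read 1310 in berberine-treated cells and 1272 in the control (difference -0.05). U1, which pairs with the 5' splice site, read 419 in berberine-treated cells and 418 in the control by RNU1-1 (difference -0.11), and 276 in berberine-treated cells and 253 in the control by RNU1-3 (difference 0.07), a near copy. The minor spliceosome snRNAs were RNU11, at 0.23 and -0.06 by its probes, and RNU4ATAC (184 in berberine-treated cells and 188 in the control, difference -0.26). U2 snRNA (RNU2-1) was not detected on either array. U4 snRNA (RNU4-2) was detected on the control array only. The median of the detected probes was -0.06.

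The 7SL RNA of the signal recognition particle (RN7SL1) read 20746 in berberine-treated cells and 18936 in the control, a difference of -0.01. 7SK RNA, which holds the elongation factor P-TEFb inactive, read 216 in berberine-treated cells and 225 in the control by the detected probe of RN7SK (difference -0.25), and its other probe was not detected on either array. RNY1 read 259 in berberine-treated cells and 244 in the control (ratio 1.00 after normalization). RNY3, like RNY1 an RNA bound by the Ro60 protein, read 351 in berberine-treated cells and 413 in the control (difference -0.44). RMRP, the RNA of the enzyme that cuts the ribosomal RNA precursor, and the 3 vault RNA probes were not detected on either array.

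The 19 members detected on 1 array only are given as bounds against the detection floor, and none of the bounds reached 1.5-fold. They hold after background correction only, and computed from the deposited table they were smaller, the highest being 1.15-fold for SNORD48 and SCARNA18 and 1.13-fold for RPPH1. On the berberine array only, SNORD48, another RNA often used as a reference, had the highest bound, just under the threshold (175 in berberine-treated cells and 141 in the control), and SNORD100 was at least 1.42-fold higher, SNORA14B 1.33-fold, SCARNA14 1.21-fold, SNORA5C 1.20-fold, SNORD73A 1.14-fold and SNORD21 1.09-fold. SNORD55, SNORA29, SNORA21 and SNORA11 had bounds between 1.02 and 1.04. On the control array only, SCARNA18 was at least 1.49-fold lower with berberine, RPPH1, the RNA subunit of RNase P, at least 1.42-fold, SNORA70C 1.31-fold, RNU4-2 1.25-fold, SNORA17B 1.23-fold, SNORD84 1.17-fold, SCARNA27 1.12-fold and SNHG10 1.01-fold. RPPH1 read 142 in berberine-treated cells and 160.2 in the control. SCARNA27 read 116 in berberine-treated cells, with a detection p of 0.696, and 147 in the control.

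The 223 members not detected on either array included all 24 probes of the imprinted SNORD113 and SNORD114 cluster and all 13 probes of SNORD64 and the SNORD107 to SNORD116 group of the SNHG14 locus, which is best known from brain. Their intensities lay between 106 and 150.4 on the berberine array and between 94.5 and 141 on the control array. Their differences had a median of 0.00, and they ran between -0.44 and 0.69. These are differences of background and are not read as levels.

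Genes of the proteins that bind or assemble these RNAs were taken by list, beside 3.87% of all measured genes over 1.5-fold higher and 4.09% lower. Of 20 measured snoRNP core and assembly genes, none was past 1.5-fold and the median was -0.01, and NOLC1, a nucleolar chaperone of snoRNPs, was highest at 0.36, with RPAP3 at 0.34, RUVBL2 at -0.27 and WRAP53 at -0.27. Of 37 spliceosomal snRNP and snRNP assembly genes none was past it (median 0.01). PHAX, the export adaptor of snRNAs, lay at 0.47 by its brightest probe, and its 3 probes ran between -0.17 and 0.47. SART3 lay at 0.41, SMN1 at 0.32 and LSM6 at -0.32. SMN1 has a near-identical copy, so its probe is uncertain. Of 6 signal recognition particle genes (median 0.08) and 13 genes of Ro, vault and RNase P/MRP proteins (median -0.11) none was past it, with SRP19 at 0.17, SRP72 at 0.16, SRP14 at 0.09 and SRP9 at 0.08, and with RPP14 at -0.47, POP5 at -0.25, MVP at 0.24 and POP7 at -0.22. The dimmer probe of SRP14 lay at -0.03.

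Of 27 genes of snRNA transcription and 3' processing, 2 were lower (4.09% of all measured genes were) and none higher (median -0.01). TOE1, an exonuclease that trims snRNA 3' ends, read 192 in berberine-treated cells and 267 in the control (2.03-fold lower, difference -1.02). INTS6, a subunit of the Integrator complex, read 303 in berberine-treated cells and 404 in the control (1.64-fold lower, difference -0.71). INTS7 and SNAPC1, a subunit of the snRNA promoter factor, lay just inside at -0.57 and -0.55. Of 8 genes of the 7SK particle and P-TEFb, 2 were higher (3.87% of all measured genes were) and 1 was lower (4.09% of all were), with a median of 0.09. CCNT2, a cyclin of P-TEFb, read 378 in berberine-treated cells and 246 in the control (1.75-fold higher, difference 0.81), and AFF4, a scaffold of the super elongation complex, read 389 in berberine-treated cells and 269 in the control (1.57-fold higher, difference 0.65). HEXIM2, which binds 7SK to inhibit P-TEFb, read 206 in berberine-treated cells and 271 in the control (1.80-fold lower, difference -0.85), and HEXIM1 lay at -0.33. Each of these 5 genes past the threshold rests on 1 probe, and none of the 5 was past it in the deposited values.

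Of 13 nonsense-mediated decay genes, 2 were lower, against 4.09% of all measured genes, and none higher (median -0.02). UPF2, which bridges UPF1 and UPF3, read 641 in berberine-treated cells and 965 in the control by its brightest probe (1.71-fold lower, difference -0.77), and its 3 probes ran between -0.77 and -0.38. It was also past the threshold in the deposited values. SMG9, a regulator of the SMG1 kinase, read 196 in berberine-treated cells and 231 in the control (1.53-fold lower, difference -0.61), and its deposited difference of -0.32 was inside the threshold. NCBP2 lay at -0.56 by its brightest probe, and its 3 probes ran between -0.56 and 0.11. SMG1 lay at -0.46. Of 43 textbook protein-coding hosts, none was higher (3.87% of all measured genes were) and RPL37 alone was lower (4.09% of all were). RPL37 read 154 in berberine-treated cells and 178 in the control, 1.74-fold lower, and was not past the threshold in the deposited values (-0.30). Its probe was near the detection floor, as the lowest intensity of any probe detected on both arrays was 151.5 on the berberine array. TAF1D by its brightest probe, SF3B3 and CHD8 lay at 0.53, 0.47 and -0.44, and the median was 0.02.

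**Figure D4:**
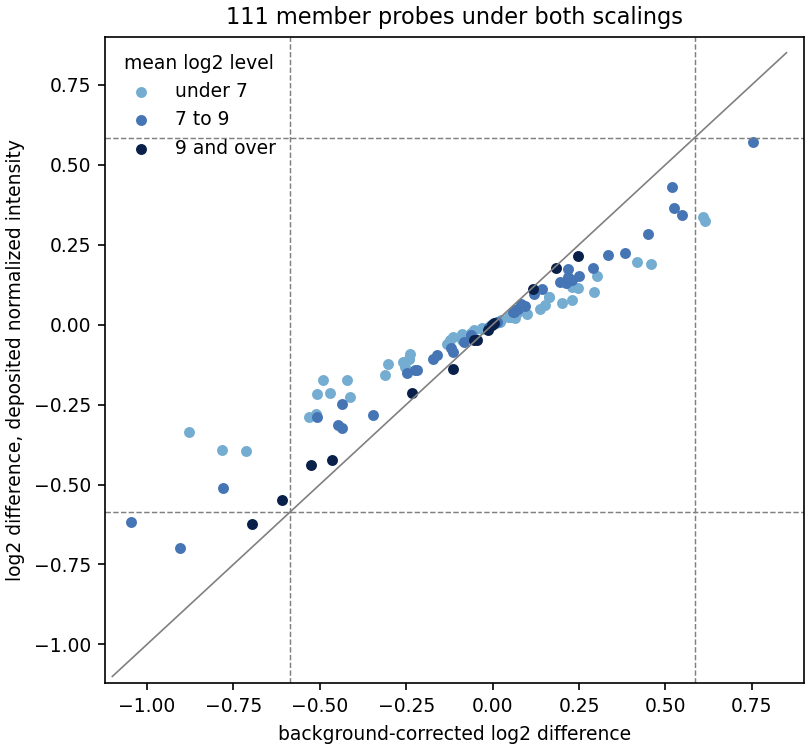
Log2 difference (berberine minus control) of the 111 member probes after background correction (horizontal) against that in the deposited normalized intensity (vertical), coloured by mean log2 level; the solid line marks equality and dashed lines 1.5-fold. Points of low level lie nearer to 0 on the vertical axis, 3 probes are past the lower line on both axes, and none is past the upper line on the vertical axis.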

How the data were processed

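Each group gave 1 HumanHT-12 v4 array of HepG2 total RNA. A Roche kit for RNA isolation and Ambion MessageAmp labelling are named in the labels, whereas the methods of the study name TRIZOL. The authors deposited non-normalized probe intensity with a detection p-value per probe from GenomeStudio (its version is not stated), and a table of normalized intensity. How the normalized table was made is not given in the sources used here. For the main values, the non-normalized intensity was processed with limma 3.58.1 (R 4.3.3). Its neqc function took the background from the detection p-values, applied normexp with an offset of 16 and quantile normalization, and gave log2 values. Near the background, folds depend on these settings. Later steps used Python 3.11.15, pandas 2.3.3, numpy 2.4.6 and matplotlib 3.10.9. The normalization was tested on simulated data in which the changed probes were clearly above background and changed by more than 1.5-fold. That test does not cover dim probes or folds near the threshold.

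A probe was detected at a detection p under 0.01, a measured gene had a probe detected on both arrays, and its brightest such probe gave its value. Text values are raw intensities, and differences and folds are after neqc. A bound for a member detected on 1 array is taken against the higher of its own dim value and the lowest detected level of that array. The 1.5-fold threshold is that of the study, which also required a P-value cutoff. That cutoff was not applied here. Of 47231 probes, 30113 had 1 symbol in the platform annotation, 8 several and 17110 none, and no further probe met the rule under its current symbol. A host is the RefSeq gene (GRCh38.p14 table) whose span encloses the snoRNA or scaRNA gene. Strand was meant to be required too, but the strand of snoRNA genes was not used here. Members detected on both arrays or on 1 were all named, and of each gene list up to 4 members with the largest difference. The members and lists were chosen with earlier results of these data known. With 1 array per group no test was possible, and the number of arrays limits the precision.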

Additional observations from a re-analysis of the deposited data

How the results depend on the processing

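No probe past 1.5-fold changed direction under the 4 other scalings. The counts of member probes past 1.5-fold (3 higher and 8 lower) depended on the scaling. They were 0 higher and 3 lower both in the deposited normalized intensity and after quantile normalization without background correction, and 1 higher and 5 lower with a neqc offset of 50. Of the 11 probes past 1.5-fold, 3 kept the call in each of the first 2 settings, 6 with the offset of 50 and 10 after background correction with median scaling, and all 11 kept their sign. Median scaling gave 3 higher and 7 lower, a detection p under 0.05 gave 5 higher and 12 lower, and no filter on dim probes gave 8 higher and 14 lower. The share over all probes is given here for the main and deposited values only. The counts under the other settings have no such share beside them and are not read as an excess in either direction. The signs of all 111 probes held in the first 3 settings, while with median scaling 6 of 111 probes inside the threshold changed sign, and the median of the enclosing hosts did too (0.02, against -0.03). Depth of signal limits the small RNA results, since 54 of 111 probes had a mean level under 7. No paired analysis was possible because each group has 1 array, and for the same reason no replicate could be left out.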

Other observations

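A further list held long non-coding hosts and other long non-coding RNAs outside the symbol rule. Of its 5 measured genes, CYTOR alone was over 1.5-fold higher (3.87% of all measured genes were). None was lower (4.09% of all were). CYTOR read 215 in berberine-treated cells and 160 in the control by its brighter probe (1.69-fold, difference 0.76), while its other probe differed by 0.31. In the deposited values its difference was 0.34, inside the threshold, as were those of the other 4. EPB41L4A-AS1, a host of SNORA13, read 1406 in berberine-treated cells and 993 in the control (difference 0.44). TUG1, a nuclear RNA, read 1609 in berberine-treated cells and 1907 in the control (difference -0.37). The median of the 5 was 0.28, against -0.01 over all 9128 measured genes.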
